A study of Homo sapiens with 6 samples.

Results

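Proteasome genes were taken as the protein-coding genes whose symbols start with PSMA, PSMB, PSMC, PSMD, PSME, PSMF or PSMG followed by a digit. The rule finds 50 genes, of which 48 are among the 25071 genes of the count table and all 48 passed the filter on low counts, as did 15816 genes in all. PSMA8, a testis form of an alpha subunit, and PSMB11, a thymus form of a catalytic subunit, were not analysed here. The members were measured by RNA-seq of rRNA-depleted RNA from PLC/PRF/5, a human hepatoma cell line. The cells were given either an ARD1-overexpressing plasmid (3 libraries) or a control vector (3 libraries) and were collected 48 h after transfection. The enzyme is also called NAA10 and is the catalytic part of NatA, which acetylates protein N-termini. The study's title links it to escape from ferroptosis, and the comparison gives the transcripts that differed between the transfected populations, in which the share of cells that took up a plasmid is not given.

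The proteasome is the protease that degrades most ubiquitin-tagged proteins of the cytosol and nucleus. Its 20S core is a barrel of outer alpha rings, which gate the entry, and inner beta rings, which carry the proteolytic sites. A 19S cap binds the barrel, removes ubiquitin and threads the substrate in with a ring of ATPases, while dedicated chaperones assemble core and cap. Interferon-induced catalytic subunits can replace the constitutive ones to form the immunoproteasome, which generates peptides for antigen presentation. When proteasome activity is limiting, the transcription factor NFE2L1 is known to raise the transcription of the subunit genes together.

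The libraries held between 21857327 and 25011357 counts, and CPM below are counts scaled to the TMM-adjusted library size. NAA10 itself was at 355, 400.2 and 294 CPM in the ARD1 libraries, against 35.6, 32.2 and 36.2 CPM in the control libraries, a 10.1-fold difference. Of all genes tested, 10223 changed (64.6%; 32.4% higher and 32.2% lower in ARD1 cells) by edgeR's quasi-likelihood test with Benjamini-Hochberg adjusted p under 0.05, which is the threshold throughout. Control replicate 1 stood apart. The chi-square per degree of freedom of its counts was 15.9 against control replicate 2 and 18.5 against control replicate 3, while it was 2.86 between those 2 and 2.44 to 4.09 between ARD1 libraries. Of the 10 hepatocyte and hepatoma markers 8 were tested, of which KRT8, KRT18, ALB, FGB, TF and AFP were lower and APOB and SERPINA1 higher in ARD1 cells. APOA1 was at or under 0.36 CPM in every library and TTR was at 0 in the ARD1 libraries. Their summed level was 1972 to 2042 CPM in ARD1 libraries and 3441 to 4215 CPM in control libraries. The summed level of 7 immune markers was 8.79 to 9.60 CPM in ARD1 libraries and 16.8 to 19.2 CPM in control libraries. That of 7 fibroblast and stellate markers was 18.2 to 20.7 CPM in ARD1 libraries and 78.1 to 98.8 CPM in control libraries. Of these COL3A1 and LUM were lower and COL1A1 was higher in ARD1 cells. The sum of 4 endothelial markers was 90.02 to 103 CPM in ARD1 libraries and 69.2 to 82.2 CPM in control libraries. Among them PECAM1, KDR and VWF were higher in ARD1 cells. CDH5 went the other way, at 0.161 CPM or less in ARD1 libraries and at 30.5 to 35.3 CPM in control libraries. The part of these lists in the results was not tested. In such bulk samples a change in the share of cells of a kind and a change in the RNA per cell cannot be told apart.

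Of the 48 proteasome genes, 29 changed (60.4%, against 64.6% of all genes). In ARD1 cells 16 were higher, beside 32.4% of all genes, and 13 were lower, beside 32.2% of all genes. Their median log2 fold change, ARD1 over control, was 0.04, against 0.03 over all genes tested. The libraries of the groups did not overlap in CPM for 28 members, beside 69.6% of all genes. When the absolute log2 fold change also had to reach 1, 1 member passed, beside 21.5% of all genes, and at 0.5 it was 7 members, beside 44.9% of all genes. The range was narrow, from -0.63 to 0.50, with PSMB10 at -2.20 outside it. The split of 16 higher and 13 lower depended on scaling. With library totals and no scaling factors 30 members were higher and 7 lower, and the median was 0.31 for the members and 0.30 for all genes. The members' share of all counts was 0.502%, 0.525% and 0.505% in the ARD1 libraries and 0.432%, 0.430% and 0.438% in the control libraries, while their summed TMM-scaled level was 4662 ± 125 CPM and 4754 ± 138 CPM (SD, n = 3 each) in ARD1 and control cells. The share of counts was thus higher in each ARD1 library, and the scaled sums overlapped.

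**Figure D1:**
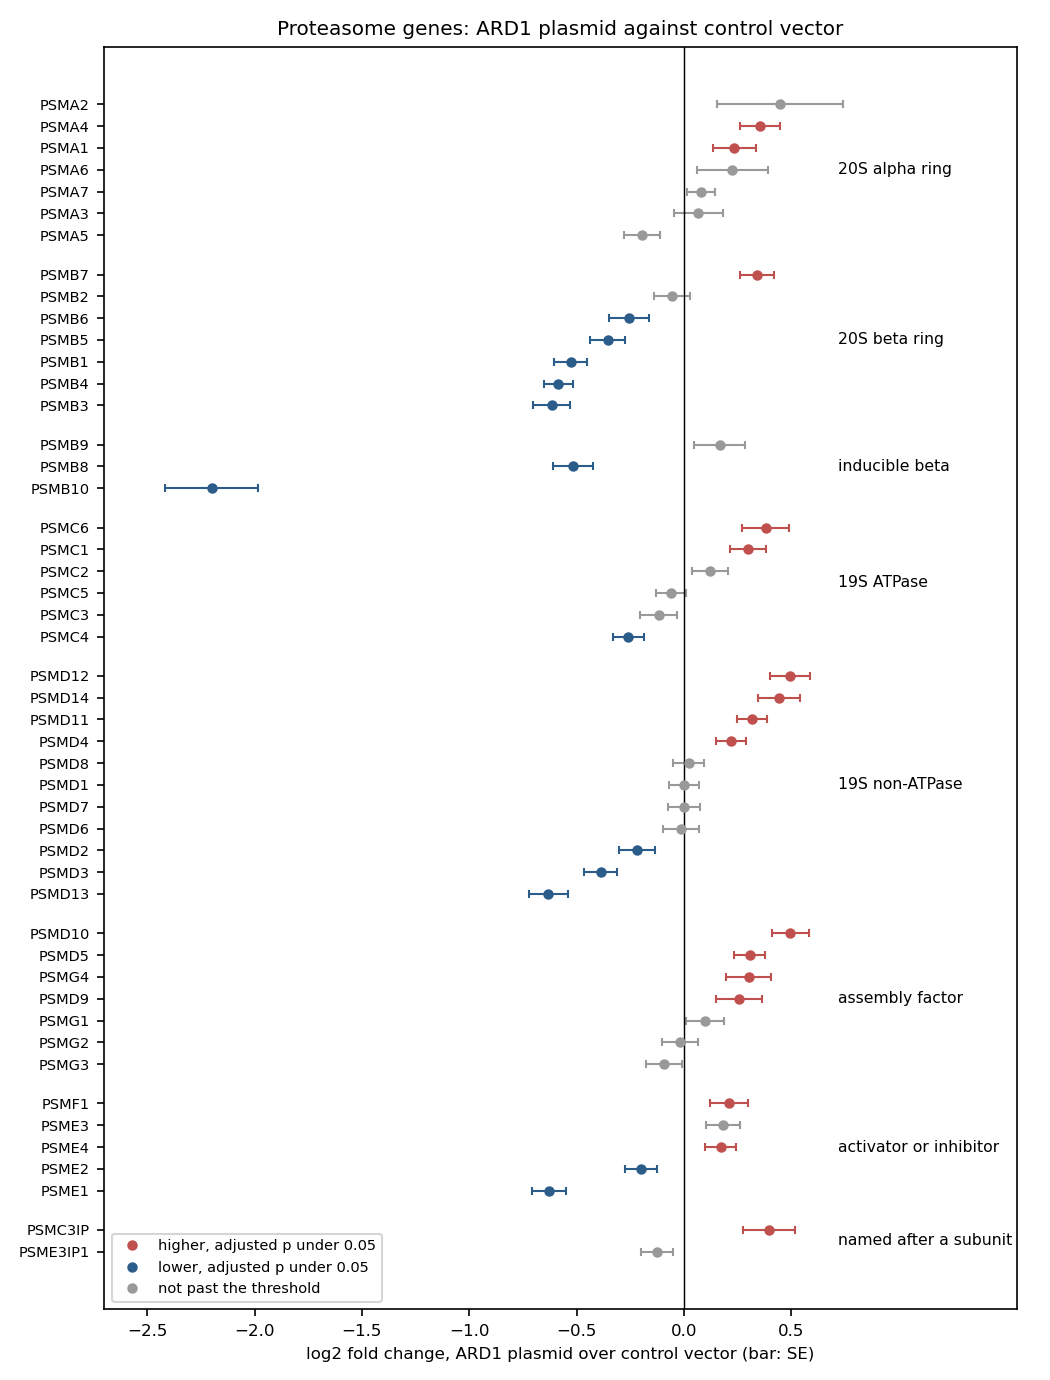
Log2 fold change (ARD1 plasmid over control vector) of the 48 proteasome genes, grouped by their place in the complex. Points are fitted values from edgeR and bars are standard errors. PSMB10 lies at -2.20 and all others between -0.63 and 0.50.

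In the 20S core the calls were few in the alpha ring and mainly falls in the beta ring, and the difference between the rings was not tested. Of the 7 alpha subunits 2 were higher and 0 lower (median 0.23), and of the 7 constitutive beta subunits 1 was higher and 5 lower (median -0.36). Among all genes 32.4% were higher and 32.2% lower. The alpha count was 1 higher and 1 lower with RLE scaling, with DESeq2, with no filter and without ARD1 replicate 2. In the beta ring PSMB1, PSMB3 and PSMB4 were lower under every scaling tried, while PSMB5 missed the threshold (-0.09, adjusted p = 0.285) and PSMB6 was at 0.01 with library totals alone, where 3 of the 7 were lower, 2 higher, and 5 of the 7 alpha subunits higher. With the trends of GC content and transcript length removed, 3 alpha subunits were higher and 1 lower, and the beta counts stayed at 1 higher and 5 lower. A within-library ratio does not depend on scaling, but it was not adjusted for GC content here. The summed counts of the beta ring were 1.54, 1.60 and 1.51 times those of the alpha ring in the ARD1 libraries, against 2.40, 2.05 and 1.93 times in the control libraries. All 3 ARD1 values lay below all 3 control values. The highest was that of control replicate 1, whose deviation from the other controls went with GC content over the members (Pearson's r = 0.73). The part of GC content in this ratio was not tested, nor was that of single abundant genes. PSMB4 alone averaged 280 CPM in ARD1 cells and 420 CPM in control cells, where the beta ring summed to 812 and 1029 CPM. PSMA4 averaged 134 and 105 CPM in the same groups, where the alpha ring summed to 524 and 487 CPM.

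In the alpha ring, PSMA4 (alpha3) had 128, 139 and 137 CPM in ARD1 cells and 87.7, 110.0 and 118 CPM in control cells, a log2 fold change of 0.35 (SE 0.0946, adjusted p = 0.00423). PSMA1 (alpha6) had 24.5, 22.4 and 23.0 CPM in ARD1 cells and 19.7, 17.9 and 21.8 CPM in control cells (0.23, SE 0.0991, adjusted p = 0.0497). Neither gene's groups overlapped, and control replicate 1 was the lowest library for PSMA4. PSMA1 passed the threshold narrowly and lost it in 7 of 15 alternatives, including without control replicate 2 (0.14, adjusted p = 0.272) and without any 1 ARD1 library. PSMA5 (alpha5) was the only alpha subunit with a negative value, at 70.3, 84.7 and 77.8 CPM in ARD1 cells and 83.4, 88.2 and 95.4 CPM in control cells. Its value of -0.20 missed the threshold (adjusted p = 0.0517) and passed it in 9 of 15 alternatives, among them without control replicate 1 (-0.25), without ARD1 replicate 2 (-0.26) and after removal of GC and length trends (-0.51).

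The remaining alpha subunits, PSMA2, PSMA3, PSMA6 and PSMA7, did not pass the test (0.07 to 0.45). Although the alpha ring holds its subunits in equal number, the mean RNA levels per transcript length spread widely. In RPKM, which divides CPM by transcript length in kilobases, PSMA7 was at 218 in ARD1 cells and 206 in control cells. PSMA2 was lowest, at 1.37 RPKM in ARD1 cells and 1.003 RPKM in control cells, followed by PSMA6 at 5.66 RPKM and 4.84 RPKM in the same groups. PSMA2, PSMA6 and PSMA1 are also the alpha genes whose transcripts share most of their bases on the same strand with an annotated readthrough gene, at 52.5%, 81% and 53.2%. PSMA2 and PSMA6 have 3 and 4 annotated copies elsewhere in the genome, so the counts of these genes are uncertain and their part in the low levels was not tested.

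In the beta ring, the 3 subunits without a proteolytic site that fell did so by similar amounts. PSMB4 (beta7) had 267, 296 and 278 CPM in ARD1 cells and 436, 412 and 414 CPM in control cells (-0.58, SE 0.0681, adjusted p = 2.91e-06). PSMB3 (beta3) had 82.7, 83.9 and 75.5 CPM in ARD1 cells and 139, 117 and 115 CPM in control cells (-0.62, SE 0.0851, adjusted p = 1.6e-05). PSMB1 (beta6) fell to 66.6 ± 4.05 CPM in ARD1 cells, against 95.9 ± 5.25 CPM in control cells (-0.53, SE 0.0764). In all 3 genes every ARD1 library lay below every control library. PSMB2 (beta4), the remaining subunit of the ring without a proteolytic site, was at -0.06 with overlapping groups. PSMB4 lies on chromosome 1 at chr1:151399534-151401944 (GRCh38, GENCODE 29), 132 kb from PSMD4, which rose by 0.22.

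The 3 constitutive catalytic subunits did not move together. PSMB5, the chymotrypsin-like subunit beta5, had 59.6, 62.1 and 55.8 CPM in ARD1 cells and 82.4, 73.9 and 70.6 CPM in control cells (-0.36, SE 0.0807, adjusted p = 0.00133). PSMB6, the caspase-like subunit beta1, had 62.3, 67.7 and 55.7 CPM in ARD1 cells and 82.9, 71.3 and 67.6 CPM in control cells (-0.26, SE 0.0934, adjusted p = 0.0257). PSMB7, the trypsin-like subunit beta2, had 131, 149 and 139 CPM in ARD1 cells and 120.0, 102 and 109 CPM in control cells (0.34, SE 0.0798, adjusted p = 0.00167). PSMB5 and PSMB7 were separated by group in opposite directions. The groups of PSMB6 overlapped, and its call was lost when ARD1 replicate 1 (adjusted p = 0.0682) or ARD1 replicate 3 (adjusted p = 0.159) was left out.

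Of the 3 inducible subunits that replace these in the immunoproteasome, 2 fell, beside 32.2% of all genes, and 1 did not pass the test. PSMB10, the inducible beta2i, was 4.6-fold lower, the largest change of all 48 members. It had 2.22, 1.05 and 2.01 CPM in ARD1 cells (53, 28 and 50 counts) and 8.92, 7.18 and 8.04 CPM in control cells (196, 151 and 179 counts), a log2 fold change of -2.20 (SE 0.218, adjusted p = 5.35e-07). The highest ARD1 library held less than any control library. PSMB10 lies at chr16:67934502-67937087, and 45.3% of its transcript is shared on the same strand with AC040162.1. That gene was itself at 0.719 ± 0.103 CPM in ARD1 cells and 1.45 ± 0.199 CPM in control cells, below PSMB10 in both groups.

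PSMB8, the inducible beta5i, had 24.3, 21.8 and 23.5 CPM in ARD1 cells and 36.0, 30.5 and 32.96 CPM in control cells (-0.51, SE 0.093, adjusted p = 0.000199). PSMB9, the inducible beta1i, had 17.6, 20.2 and 20.8 CPM in ARD1 cells and 20.4, 15.2 and 16.6 CPM in control cells (0.17, SE 0.118, adjusted p = 0.228). PSMB8 was separated by group. PSMB9 overlapped because control replicate 1 lay among the ARD1 values, and without that library the value was 0.29 and past the threshold. The annotated bounds of PSMB8 and PSMB9 overlap by 568 bases on opposite strands of chromosome 6. Of the transcript taken for either gene, 0% lies opposite another gene. Whether the counting used strand is not given, and without it reads from the stretch of 568 bases, if any, cannot be told apart.

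**Figure D2:**
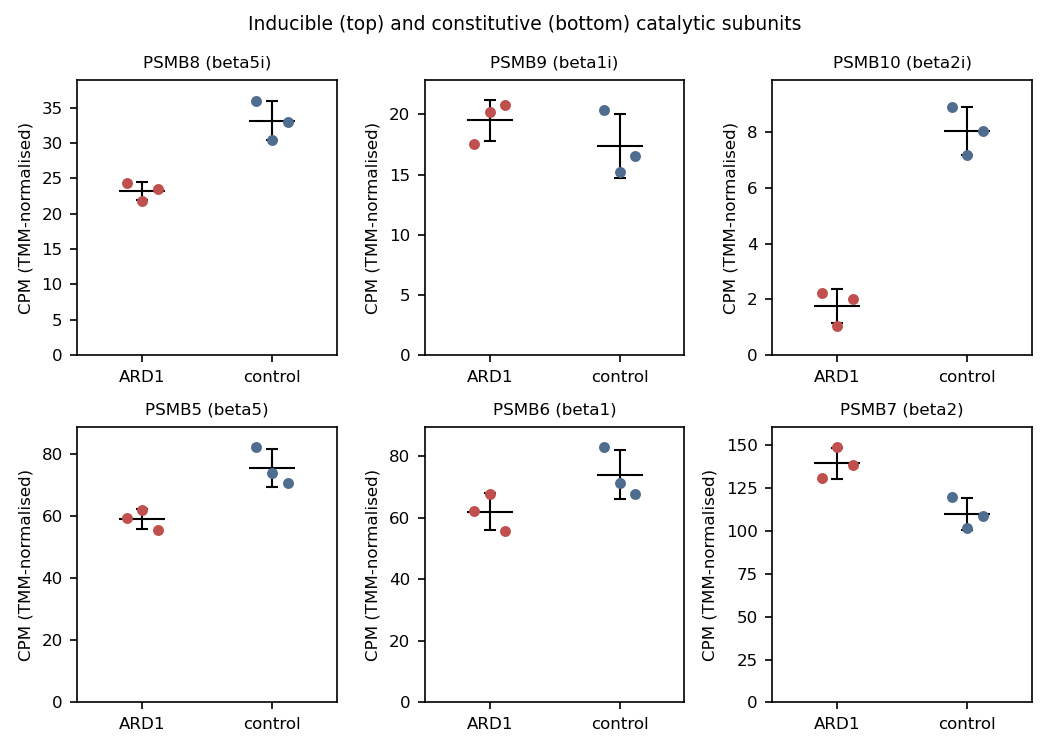
TMM-scaled CPM of the inducible catalytic subunits (top) and the constitutive subunits they replace (bottom) in each library, with ARD1 plasmid on the left and control vector on the right of each panel. Bars are the mean and SD of 3 libraries. PSMB10 and PSMB8 are lower in every ARD1 library, PSMB7 is higher in every ARD1 library, and PSMB9 and PSMB6 overlap.

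Each inducible subunit was also set against the constitutive subunit that it replaces, within a library. PSMB10 counts were 0.0170, 0.00705 and 0.0145 of PSMB7 counts in the ARD1 libraries, against 0.0743, 0.0706 and 0.0741 in the control libraries, a mean log2 difference of -2.60. PSMB9 counts were 0.282, 0.298 and 0.374 of PSMB6 counts in the ARD1 libraries, against 0.246, 0.213 and 0.245 in the control libraries, a difference of 0.43. PSMB8 counts were 0.407, 0.352 and 0.422 of PSMB5 counts in the ARD1 libraries, against 0.437, 0.412 and 0.467 in the control libraries, a difference of -0.16. The first ratio was lower and the next higher in all 3 ARD1 libraries, and the PSMB8 ratio overlapped. By the exact two-sided permutation test over libraries the raw p values were 0.1, 0.1 and 0.2 in this order, and 0.15, 0.15 and 0.20 after Benjamini-Hochberg adjustment over the 3 ratios. With 3 libraries against 3 the smallest p this test can give is 0.1.

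The 250 bases before the transcription starts of the inducible genes are shown because these genes are known to be induced through interferon response elements. Sequences are from RefSeq, build GRCh38.p14, 5′ to 3′ on the gene's strand. Capitals mark matches to GAAA followed after any 2 bases by GAAA (an interferon stimulated response element core), TTCNNNGAA (an interferon gamma activated site), TGACNNNGC (an antioxidant response element core) or CCAAT, each searched on both strands. PSMB10 is shown at chr16:67936851-67937100 (minus strand), the inner PSMB8 start at chr6:32844048-32844297 (minus strand), and PSMB9 at chr6:32853942-32854191 (plus strand).
PSMB10: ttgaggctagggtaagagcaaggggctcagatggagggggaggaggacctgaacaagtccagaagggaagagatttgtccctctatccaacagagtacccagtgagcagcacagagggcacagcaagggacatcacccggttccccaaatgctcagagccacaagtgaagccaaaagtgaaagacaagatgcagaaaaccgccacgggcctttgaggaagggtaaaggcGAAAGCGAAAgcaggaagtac
PSMB8: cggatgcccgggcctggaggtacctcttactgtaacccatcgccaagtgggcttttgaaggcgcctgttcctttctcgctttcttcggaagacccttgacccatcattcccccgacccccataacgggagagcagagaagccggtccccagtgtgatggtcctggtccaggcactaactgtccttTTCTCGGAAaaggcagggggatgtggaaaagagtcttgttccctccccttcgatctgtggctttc
PSMB9: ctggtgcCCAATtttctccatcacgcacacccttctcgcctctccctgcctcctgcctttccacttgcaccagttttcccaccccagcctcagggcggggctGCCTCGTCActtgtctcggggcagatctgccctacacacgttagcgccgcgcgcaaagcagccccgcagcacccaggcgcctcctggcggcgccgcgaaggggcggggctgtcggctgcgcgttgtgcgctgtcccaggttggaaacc

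PSMB10 held 1 interferon stimulated response element match, which begins 21 bases before the start. The PSMB8 window held 1 interferon gamma activated site match, and a window of a second PSMB8 start held 0 matches. PSMB9 held a CCAAT match and an antioxidant response element core. Over the members, 42 of 48 matched the RefSeq table, with 53 windows. Of these windows 9.43% held the interferon stimulated response element core and 11.3% held TTCNNNGAA, against 3.02% and 6.57% of all 35116 windows. The members with that core were PSMA4, PSMB4, PSMB10, PSME2 and PSMG4, of which 2 were higher and 3 lower in ARD1 cells. A match describes the letters and does not show a binding site.

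In the 19S cap the symbol rule finds 17 subunits, without ADRM1 and SEM1, which are given below. Of the 17, 6 were higher and 4 lower (median 0.00), beside 32.4% of all genes higher and 32.2% lower. Both directions were found among the ATPases and among the other subunits. With library totals alone 12 of the 17 were higher and 1 lower. Of the 6 ATPases, which unfold substrates, 2 were higher and 1 lower. PSMC6 (Rpt4) had 57.4, 56.4 and 56.6 CPM in ARD1 cells and 34.3, 47.4 and 49.1 CPM in control cells (0.38, SE 0.11, adjusted p = 0.00711). PSMC1 (Rpt2) had 44.9, 48.0 and 44.2 CPM in ARD1 cells and 34.1, 39.3 and 38.3 CPM in control cells (0.30, SE 0.0842, adjusted p = 0.0062). PSMC4 (Rpt3) had 116, 129.8 and 118 CPM in ARD1 cells and 150.3, 145 and 139 CPM in control cells (-0.26, SE 0.072, adjusted p = 0.00565).

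The groups did not overlap for these 3 genes. With GC and length trends removed PSMC6 was at 0.11 and PSMC4 at -0.08, both past the threshold no longer, and with library totals alone PSMC4 was at 0.01. PSMC1 has 13 annotated copies, and 82.1% of its transcript lies opposite NRDE2, which makes its counts uncertain. PSMC2 (Rpt1), PSMC3 (Rpt5) and PSMC5 (Rpt6) did not pass the test (-0.12 to 0.12).

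The lid is the part of the cap that removes ubiquitin chains. Of its 8 subunits under the symbol rule 3 were higher and 2 lower, beside 32.4% and 32.2% of all genes. PSMD14 (Rpn11), the deubiquitinating enzyme of the lid, had 83.0, 82.0 and 84.1 CPM in ARD1 cells and 51.6, 59.8 and 71.8 CPM in control cells (0.44, SE 0.0993, adjusted p = 0.0012). PSMD12 (Rpn5), a scaffold subunit, had 103, 102 and 112 CPM in ARD1 cells and 63.4, 79.1 and 82.8 CPM in control cells (0.49, SE 0.0932, adjusted p = 0.000286). Both were separated by group, with the ARD1 libraries close together and control replicate 1 lowest. The value of PSMD12 was 0.19 after removal of GC and length trends. PSMD11 (Rpn6) also rose, to 195 ± 7.54 CPM in ARD1 cells against 157 ± 7.48 CPM in control cells (0.32, SE 0.0689).

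The lid scaffold PSMD13 (Rpn9) fell, at 50.4, 59.7 and 53.5 CPM in ARD1 cells and 94.5, 80.6 and 78.5 CPM in control cells (-0.63, SE 0.0903, adjusted p = 2.23e-05). PSMD3 (Rpn3) had 141, 150.05 and 142 CPM in ARD1 cells and 209.7, 182 and 175 CPM in control cells (-0.39, SE 0.0777, adjusted p = 0.000494). Control replicate 1 was the highest library for both, and the groups did not overlap. With library totals alone PSMD3 was at -0.12 and missed the threshold. Removal of GC and length trends left it at -0.11 (adjusted p = 0.0482), and the replicate block on top of that ended the call (adjusted p = 0.0609). PSMD6 (Rpn7), PSMD7 (Rpn8) and PSMD8 (Rpn12) lay between -0.01 and 0.02 and did not pass the test. In the base, PSMD4 (Rpn10), a ubiquitin receptor, rose by 0.22 (adjusted p = 0.0129), PSMD2 (Rpn1), which docks shuttle proteins, fell by 0.22 (adjusted p = 0.0349), and PSMD1 (Rpn2) was at 0.00. PSMD4 lost its call without ARD1 replicate 1 or 2 or without control replicate 2 or 3 (adjusted p from 0.0511 to 0.12). PSMD2 lost its call without any 1 ARD1 library (adjusted p from 0.0539 to 0.143) and was at 0.05 with library totals alone.

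**Figure D3:**
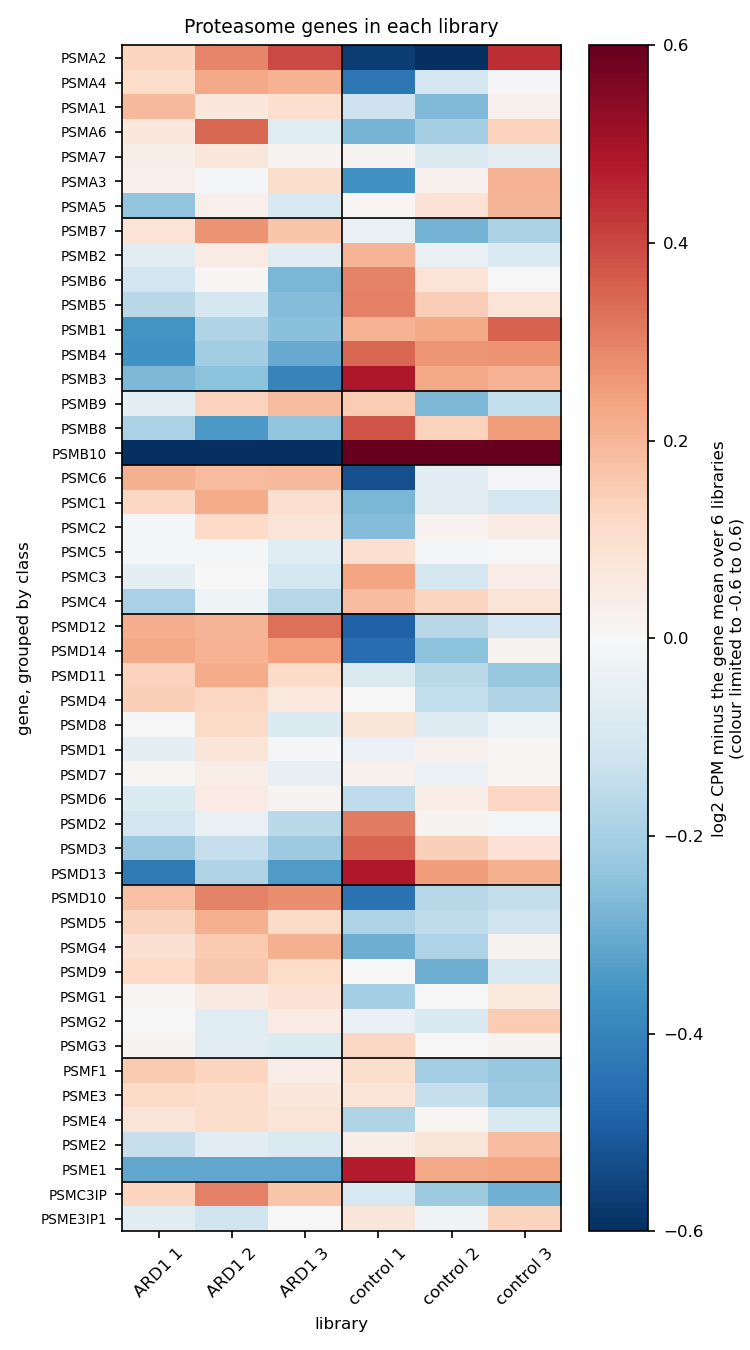
Level of each proteasome gene in each library as log2 CPM minus the gene's mean over the 6 libraries, with the ARD1 libraries on the left. The ARD1 libraries are close to one another, while control replicate 1 differs from the other controls in genes such as PSMC6, PSMA4 and PSMD12, where it is lowest.

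Of the 7 assembly factors 4 were higher and 0 lower (median 0.26), beside 32.4% of all genes higher and 32.2% lower. With library totals 6 of the 7 were higher. It was 3 with RLE scaling, DESeq2, no filter or the replicate block, and without ARD1 replicate 1 or control replicate 3. Without ARD1 replicate 2 or 3 or control replicate 2 it was 2. With GC and length trends removed it was again 4, among them then PSMG3 but not PSMD5. PSMD10 (gankyrin), a chaperone of the ATPase base, had 111, 121 and 119 CPM in ARD1 cells and 72.2, 87.6 and 88.9 CPM in control cells (0.50, SE 0.0854, adjusted p = 0.00013). PSMD5 (S5b), another base chaperone, had 66.9, 70.6 and 66.0 CPM in ARD1 cells and 53.6, 54.9 and 56.1 CPM in control cells (0.31, SE 0.0722, adjusted p = 0.00174). Every ARD1 library was above every control library for both. PAAF1, a base chaperone outside the symbol rule, was at 0.03 and did not pass the test (adjusted p = 0.826). PSMD9 (p27) is the remaining base chaperone among the members. It had 15.5, 15.97 and 15.4 CPM in ARD1 cells and 14.2, 11.6 and 13.4 CPM in control cells (0.26, adjusted p = 0.0471). Its groups did not overlap, but the call was lost in 9 of 15 alternatives, among them without any 1 of the libraries except control replicate 1 (adjusted p from 0.0908 to 0.27).

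The chaperones PSMG1 to PSMG4 (PAC1 to PAC4) build the alpha ring. PSMG4 had 18.9, 19.8 and 20.6 CPM in ARD1 cells and 14.5, 15.6 and 18.005 CPM in control cells (0.30, SE 0.104, adjusted p = 0.02). PSMG1 had 36.5, 37.6 and 38.5 CPM in ARD1 cells and 31.4, 36.2 and 37.7 CPM in control cells (0.10, adjusted p = 0.353). PSMG4 was separated by group and PSMG1 was not. PSMG2 had 52.7, 49.98 and 54.4 CPM in ARD1 cells and 51.1, 49.4 and 58.5 CPM in control cells (-0.02, adjusted p = 0.864). PSMG3 had 32.9, 31.0 and 30.7 CPM in ARD1 cells and 35.4, 32.5 and 32.9 CPM in control cells (-0.09, adjusted p = 0.355). Both overlapped between groups. The PSMG4 call was lost without ARD1 replicate 2 or 3 or control replicate 2 (adjusted p from 0.0541 to 0.0784). The summed counts of the assembly factors were 0.426, 0.402 and 0.436 of those of the beta ring in the ARD1 libraries, against 0.248, 0.290 and 0.307 in the control libraries, without overlap. This ratio too was not adjusted for GC content, and it uses the same beta ring sum as the ratio of the rings. PSMD10 alone averaged 117 CPM in ARD1 cells and 82.9 CPM in control cells, where the assembly factors summed to 342 and 289 CPM.

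Among the activators that can take the place of the cap, PSME1 (PA28 alpha) fell and PSME3 (PA28 gamma) did not pass the test. PSME1 had 71.5, 71.6 and 71.5 CPM in ARD1 cells and 123, 104 and 105 CPM in control cells (-0.63, SE 0.0791, adjusted p = 6.48e-06). PSME2 (PA28 beta), its interferon-inducible partner in one ring, had 49.8, 52.3 and 51.6 CPM in ARD1 cells and 56.3, 57.6 and 62.4 CPM in control cells (-0.20, SE 0.0755, adjusted p = 0.0314). Neither overlapped between groups. The genes lie 4394 bases apart on opposite strands of chromosome 14, PSME1 at chr14:24136158-24138967 and PSME2 at chr14:24143362-24147570. The PSME2 call was lost without any 1 ARD1 library or control replicate 3 (adjusted p from 0.0648 to 0.133), and its value with GC and length trends removed was 0.07. PSME2 has 6 annotated copies.

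PSME3, the nuclear activator, had 212, 211 and 204 CPM in ARD1 cells and 207, 178 and 168 CPM in control cells (0.18, adjusted p = 0.0542). PSME4 (PA200) had 122, 125 and 122 CPM in ARD1 cells and 102, 117 and 109 CPM in control cells (0.17, adjusted p = 0.0476). PSMF1 (PI31), first described as an inhibitor of the core, had 166, 163 and 153 CPM in ARD1 cells and 160.2, 129 and 127 CPM in control cells (0.21, adjusted p = 0.0481). PSME4 was separated by group, and PSME3 and PSMF1 overlapped because control replicate 1 was their highest control. Without that library PSME3 was at 0.26 and past the threshold. PSME4 and PSMF1 lost their calls in 11 and 10 of 15 alternatives, including without any 1 library except control replicate 1 (adjusted p from 0.0529 to 0.165 for PSME4 and from 0.0614 to 0.313 for PSMF1). With GC and length trends removed PSME4 was at -0.10.

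The symbol rule also finds PSMC3IP and PSME3IP1, which are named for binding a subunit and are not proteasome subunits. PSMC3IP, a meiotic recombination factor, had 9.33, 10.5 and 9.59 CPM in ARD1 cells and 8.01, 7.37 and 7.004 CPM in control cells (0.40, SE 0.122, adjusted p = 0.0101). It was separated by group, missed the threshold without control replicate 3 (0.32, adjusted p = 0.055), and 54.4% of its transcript lies opposite MLX. PSME3IP1 did not pass the test (-0.13, adjusted p = 0.151). Without these 2 genes, 28 of 46 members changed, 15 higher and 13 lower.

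Direction went with base composition. Of the 24 members with transcript GC content at or above their median of 49.7%, 4 were higher and 12 lower in ARD1 cells (median -0.16), and of the 24 below it, 12 were higher and 1 lower (median 0.22). The exception below the median was PSMB1. Of all genes, at any GC content, 32.4% were higher and 32.2% lower, and the same split was not made over them. Across the 48 members Pearson's r between GC content and log2 fold change was -0.53, against -0.20 across 15238 annotated genes. This describes genes measured in the same 6 libraries, which are not independent. With GC and length trends removed per library r was -0.22 over the members and 17 were higher and 13 lower. Among those that kept their call PSMA4 was then at 0.17, PSMB6 at -0.17 and PSMD2 at -0.11. The calls of PSMC4, PSMC6, PSMD5, PSME2, PSME4 and PSMF1 were lost. Calls were gained by PSMA5, PSMA7, PSMB9, PSMD8 (0.28), PSMG3, PSME3 and PSME3IP1. The deviation of control replicate 1 from the other controls had r = 0.73 with GC content over the same members, and without that library r between GC and fold change was -0.43. The part of base composition in the calls was not tested beyond these values. PSMB10, PSMB1, PSMB3, PSMB4, PSMB8, PSMD13 and PSME1 stayed lower, and PSMA4, PSMB7, PSMC1, PSMD10, PSMD11, PSMD12 and PSMD14 stayed higher, and past the threshold in all 15 alternatives.

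**Figure D4:**
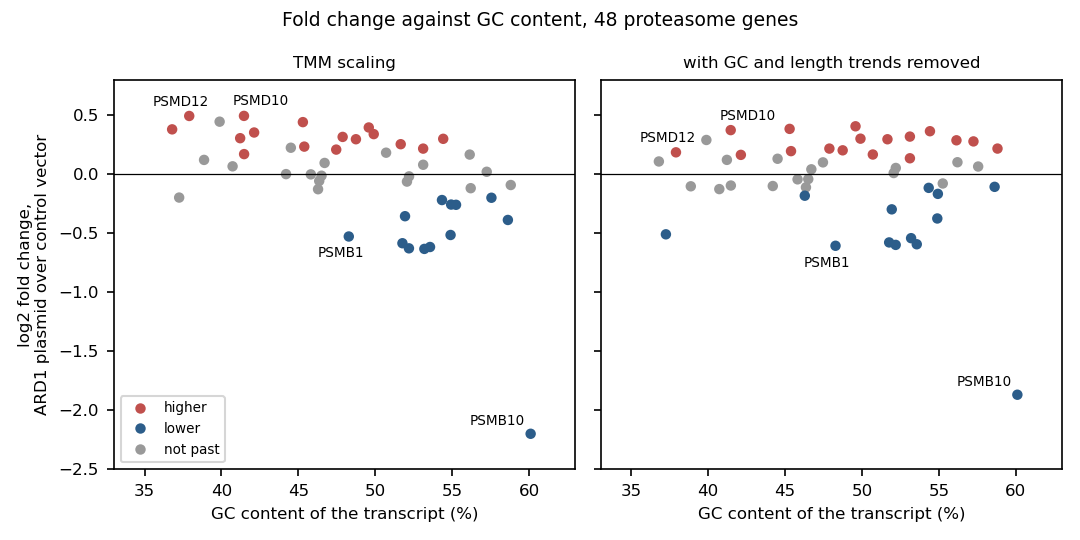
Log2 fold change (ARD1 plasmid over control vector) against the GC content of the transcript for the 48 proteasome genes, with TMM scaling (left) and with GC and length trends removed (right). Colours give the call at adjusted p under 0.05 in each fit. Pearson's r is -0.53 on the left and -0.22 on the right, and PSMB10 stays apart in both.

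Genes outside the symbol rule were read from lists. Of 13 factors that bind or build the proteasome 3 were higher and 3 lower (median 0.02), beside 32.4% and 32.2% of all genes. With GC and length trends removed 3 of the 13 were higher and 8 lower. ECPAS, a scaffold that binds the assembled 26S particle, rose by 0.54 (adjusted p = 5.81e-06), or 0.34 after that removal. POMP, the chaperone that brings the beta ring together, had 30.9, 31.8 and 34.0 CPM in ARD1 cells and 19.9, 23.2 and 26.9 CPM in control cells (0.47, adjusted p = 0.00144). It was separated by group, and with GC and length trends removed it was at 0.14 and missed the threshold. AKIRIN2, which brings proteasomes into the nucleus, rose by 0.31 (adjusted p = 0.00505), while IPO9, the importin it works with, fell by 0.53 (adjusted p = 7.02e-06). FBXO7, which binds PI31, fell by 0.61 and UBE3C, a proteasome-bound ubiquitin ligase, fell by 0.43. The cap subunits ADRM1 (Rpn13; 0.11, adjusted p = 0.246) and SEM1 (0.01, adjusted p = 0.905) did not pass the test, but did so at 0.58 and -0.30 after removal of GC and length trends.

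The list around NFE2L1 held 8 higher and 2 lower of 11 genes (median 0.51), beside 32.4% of all genes higher and 32.2% lower. It includes NFE2L2, MAFF, MAFG, MAFK and further genes that are not part of the processing of NFE2L1. With GC and length trends removed 8 of the 11 were higher and 3 lower. NFE2L1 had 596, 585 and 570.2 CPM in ARD1 cells and 314, 277 and 262 CPM in control cells (1.04, SE 0.0756, adjusted p = 1.96e-08). DDI2, the protease that cleaves NFE2L1, had 46.4, 53.5 and 51.7 CPM in ARD1 cells and 21.6, 24.4 and 22.2 CPM in control cells (1.15, SE 0.0899, adjusted p = 4.04e-08). NGLY1, which removes its sugars, had 47.7, 53.5 and 49.8 CPM in ARD1 cells and 24.2, 28.5 and 28.6 CPM in control cells (0.89, SE 0.0909, adjusted p = 7.09e-07). Each was near 2-fold higher, with no overlap. VCP, which extracts it from the endoplasmic reticulum, fell to 462 CPM on average in ARD1 cells, against 720.1 CPM in control cells (-0.64, SE 0.0753, adjusted p = 3.18e-06). NFE2L2, the related oxidative stress factor, was higher by 1.84 and MAFF, a small partner of both factors, by 0.84. These 6 genes kept their direction and side of the threshold in every alternative run. Of the 48 members 16 were higher and 13 lower, beside 32.4% and 32.2% of all genes. The part of NFE2L1 in these counts was not tested.

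Short stretches around antioxidant response element cores, the motif such factors bind, are shown for members that differ in direction. They are 5′ to 3′ on the gene's strand, from RefSeq GRCh38.p14, with TGACNNNGC in capitals. PSMA4 (chr15:78540650-78540678, plus) and PSMD12 (chr17:67366724-67366752, minus) rose, and PSMB3 (chr17:38752627-38752655, plus) and PSME1 (chr14:24136098-24136126, plus) fell.
PSMA4: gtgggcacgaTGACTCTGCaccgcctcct
PSMD12: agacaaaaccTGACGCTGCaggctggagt
PSMB3: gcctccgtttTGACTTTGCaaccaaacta
PSME1: atggcagggcTGACCCCGCctcctccatc

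The core stood in 13 of 53 member windows (24.5%), against 10.9% of all windows. By gene it stood in 5 of 14 members with a window that were higher, 4 of 11 that were lower and 4 of 17 that did not pass the test. The CCAAT box stood in 41.5% of member windows, against 32% of all windows.

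In the list of antigen processing and its regulators 6 were higher and 6 lower of 14 tested genes (median 0.10), beside 32.4% and 32.2% of all genes. NLRC5, the transactivator of MHC class I genes, had 35.1, 32.5 and 34.2 CPM in ARD1 cells and 6.55, 6.27 and 6.65 CPM in control cells (2.38, SE 0.0993, adjusted p = 4.47e-11). TAPBP (tapasin), which loads peptides onto MHC class I, had 85.0, 79.0 and 84.4 CPM in ARD1 cells and 190.3, 163 and 156 CPM in control cells (-1.04, SE 0.0824, adjusted p = 4.99e-08). Neither overlapped between groups. The interferon gamma receptor chains IFNGR1 and IFNGR2 fell by 0.89 and 0.69, and the chaperone CALR fell by 0.70. JAK2 (1.13), JAK1 (0.31), IRF1 (0.28) and B2M (0.34) were higher, and ERAP2 (-0.32) and PDIA3 (-0.42) were lower. TAP2, a chain of the peptide transporter, rose by 0.64 (adjusted p = 2.82e-05), and 80.5% of its transcript is shared on the same strand with another gene. TAP1, the other chain, which carries proteasome-made peptides across the membrane, did not pass the test (0.15, adjusted p = 0.15).

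**Figure D5:**
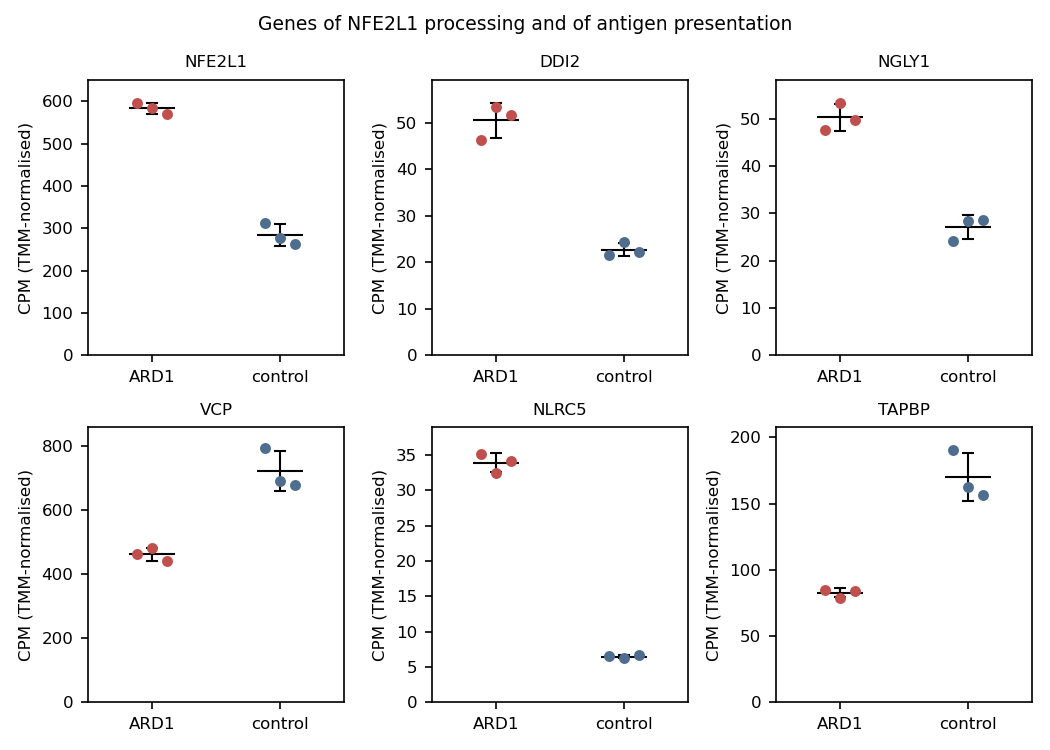
TMM-scaled CPM in each library of 4 genes of NFE2L1 and its processing and of 2 genes of antigen presentation, with ARD1 plasmid on the left and control vector on the right of each panel. Bars are the mean and SD of 3 libraries. NFE2L1, DDI2, NGLY1 and NLRC5 are higher, and VCP and TAPBP lower, in every ARD1 library.

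Upstream of the proteasome, of 5 genes of ubiquitin supply and activation 1 was higher and 2 were lower, beside 32.4% and 32.2% of all genes. The activating enzyme UBA6 was higher (0.64, adjusted p = 0.00013), and the ubiquitin genes UBB (-0.65) and RPS27A (-0.53) were lower. With library totals alone 2 of the 5 were higher and 2 lower, and without control replicate 2 it was 1 higher and 3 lower. With GC and length trends removed it was 2 higher and 3 lower, with UBA6 at 0.20. Of 7 ubiquitin shuttles, which carry tagged proteins to the cap, 1 was higher and 2 were lower, beside the same shares of all genes. SQSTM1 was higher (0.74, adjusted p = 2.35e-06), and UBQLN4 (-0.51) and UBQLN2 (-0.18, adjusted p = 0.0495) were lower. With library totals alone 5 of the 7 were higher and 1 lower, and with GC and length trends removed 2 were higher and 5 lower. UBQLN2 missed the threshold without any 1 ARD1 library and without control replicate 3, and turned to 0.09 with library totals alone.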

How the data were processed

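Counts from RNA-seq of 6 libraries, 3 per group, were analysed. The labels' protocols name Trizol extraction, rRNA depletion and a directional library kit. Per the submitters' processing notes, the tools were cutadapt 4.6 and STAR 2.7.11b and the build GRCh38. Which program counted the reads, with which strand setting and annotation, is not given in the sources used here. As deposited, the table has raw, unnormalized counts per Ensembl gene, and each of its genes has at least 2 counts over the 6 libraries. Of 25071 identifiers 25052 matched a symbol. Length, GC content, coordinates and transcript bases shared with other genes came from GENCODE 29, which held 23129 of them.

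Groups come from the sample titles. Nothing says that the cultures were separate. The p-values therefore refer to the spread of these libraries, technical or not. Filtering was by filterByExpr (15816 genes kept, 9255 not), scaling by TMM and testing with edgeR 4.0.16 in R 4.3.3 (quasi-likelihood, all 6 libraries, no covariate, Benjamini-Hochberg over all genes tested, adjusted p under 0.05). Standard errors come from the F statistic. RPKM uses the longest APPRIS principal transcript, so levels depend on that choice. Ratios of inducible to constitutive subunits were tested by exact permutation over libraries. The ratios of summed counts were not planned and were not tested. Counts without molecular identifiers are not independent molecules.

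The members and lists were chosen with earlier results of these data known. Values in every library were given for the catalytic subunits, the activators, PSMF1 and the assembly factors, and in every other class for up to 2 of the largest rises and 2 of the largest falls past the threshold. Of each list up to 6 genes with the smallest p were named, plus NFE2L1, NFE2L2, POMP, ADRM1 and SEM1. PSMA5, the list genes with values in every library, TAP1, PAAF1, JAK1, JAK2, IRF1, B2M, ERAP2 and PDIA3 were chosen after their values were seen. Some genes of the lists are not reported here and are left out of the lists' counts. Marker lists of endothelial cells (3 of 4 tested genes higher and 1 lower) and fibroblasts (1 of 5 higher and 2 lower) were read too. Alternatives were RLE scaling, library totals alone, loess offsets for GC and length (span 0.4), DESeq2 1.42.0, limma-voom (limma 3.58.1), no filter, at least 1 CPM in 3 libraries as the filter, a replicate block, and each library left out. Leaving out members that share at least 40% of their transcript bases on the same strand was added after seeing the data. The edgeR step was tested on simulated data for ARD1 against control, with 200 of 15816 genes changed. It recovered 88.1% of genes changed 1.5-fold and 100% of those changed 2-fold or 4-fold, and 6.34% of its 205 calls were unchanged genes. A setting with 10223 of 15816 genes changed, the number called in the libraries, was not tested.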

Additional observations from a re-analysis of the deposited data

How the results depend on the processing

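Of the 29 proteasome genes that changed, 14 stayed past the threshold in the same direction in all 15 alternatives. Over members and alternatives, 50 of 720 values changed sign, 70 lost the call in their first direction and 43 gained a call, 7 of these in the opposite direction. With library totals alone 30 members were higher and 7 lower (median 0.31). Leaving out 1 library gave 21 to 34 changed members, 10 to 19 higher and 10 to 15 lower (median 0.012 to 0.055). The other counts of members and of all genes stayed within 1.5 times, including without members that share bases with another gene (26 changed, 14 higher and 12 lower). No ratio of inducible to constitutive subunits changed sign.

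The cause of the changes of sign was not tested. In 6 members, none past the threshold under TMM scaling, the opposite direction passed it: PSMB2, PSMC5, PSMD6, PSMD7 and PSMG2 with library totals alone (adjusted p = 0.0193, 0.0105, 0.0273, 0.00524 and 0.0236) and PSMG3 with GC and length offsets (adjusted p = 0.00606). With library totals alone they were PSMA5 0.066, PSMB2 0.21, PSMB6 0.011, PSMC3 0.15, PSMC4 0.0071, PSMC5 0.20, PSMD2 0.050, PSMD6 0.25, PSMD7 0.26, PSMG2 0.25, PSMG3 0.18, PSME2 0.065, PSME3IP1 0.14 and UBQLN2 0.090. With GC and length offsets they were PSMA3 -0.13, PSMC2 -0.10, PSMC3 0.10, PSMC5 0.011, PSMD1 -0.10, PSMG2 0.054, PSMG3 0.22, PSME2 0.066, PSME4 -0.10 and SEM1 -0.30 (adjusted p = 4.3e-05). With the replicate block added the same genes changed sign, with PSMA3 at -0.12, PSMG2 at 0.057 and PSME2 at 0.069. PSMD1 was at -0.016 and SEM1 at -0.0028 with RLE scaling and with DESeq2, and at -0.012 and -0.00027 with no filter. PSMD7 was at 0.0051 with the stricter filter. Leaving out 1 library in turn gave ranges across 0 for PSMA3 (-0.088 to 0.17), PSMB2 (-0.14 to 0.027), PSMD1 (-0.034 to 0.033), PSMD6 (-0.097 to 0.028), PSMD7 (-0.044 to 0.028), PSMD8 (-0.037 to 0.071), PSMG2 (-0.091 to 0.029) and SEM1 (-0.096 to 0.076).

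The replicate numbers did not pair the libraries (correlations of same-numbered deviations 0.017, -0.035 and 0.034). With the replicate number as a block 29 members changed, 15 higher and 14 lower (median 0.051), 10293 of all genes changed, and the smallest exact p of a ratio over 3 pairs is 0.25. With the block and the GC and length offsets 28 members changed, 17 higher and 11 lower (median 0.063).

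Of the members that passed the threshold, PSMB6, PSMD2, PSMD4, PSMG4, PSME2, PSME4, PSMF1, PSMD9, PSMA1 and PSMC3IP lost it when some 1 library was left out. A miss does not show equal levels. PSMA2 (at most 2.29 CPM), PSMA6 and PSMB10 rest on the fewest counts. Transcript levels say nothing of assembled proteasomes or their activity.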
